A study of Mus musculus with 6 samples.

Results

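The genes described here package DNA outside, or alongside, the bulk histone supply of S phase: the histone variants H2ax, H3f3a, H3f3b and H1f0, the nucleosome assembly factors Chaf1b, Asf1a, Asf1b, Nasp and Hirip3, and Slbp, the protein that binds histone messenger RNA. Their transcripts were measured in V720, a line of mouse breast cancer cells labelled as mammary epithelium, after either 1 µM PD0332991 for 24 h (3 arrays) or vehicle for 24 h (3 arrays). PD0332991, also called palbociclib, blocks the cyclin D-dependent kinases CDK4 and CDK6. All 6 cultures were the same line in serum-containing medium, so that a single line stands for the tumour type, and the submitters describe the samples of each group as biological triplicates. The members were all probe sets of the array whose only annotated gene symbol was a listed gene, which gave 17 of 45101 probe sets. These 17 stood for 9 of the 10 genes. H1f0 had no such probe set and was not analysed here.

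Most histone genes are transcribed in S phase, and their messenger RNAs end in a stem-loop in place of a poly(A) tail. Slbp binds that stem-loop and carries the transcript through processing, export and translation. Variant histones such as H3.3, encoded by H3f3a and H3f3b, are made throughout the cell cycle from polyadenylated messages, and chaperones hand new histones to the DNA: Chaf1b is the middle subunit of CAF-1, which assembles nucleosomes behind the replication fork, Asf1a and Asf1b pass H3-H4 dimers to CAF-1 or to the HIRA complex, and Nasp guards the soluble pool of H3 and H4.

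The promoter sequences of the 2 paralogue pairs are shown because the brightest probe sets assigned to the paralogues changed by unequal amounts. For the H3.3 genes that assignment is uncertain. The Nasp window is shown because it and the Asf1b window hold the letters of a CHR element, a motif known from cell-cycle promoters. Such letters are common, in 19.2% of all windows. Each window runs from 250 bases before to 50 bases after the annotated transcription start (RefSeq, GRCm38.p6), read 5′ to 3′ on the strand of the gene. They lie at chr8:83955444-83955743 (plus strand), chr10:53596711-53597010 (plus strand), chr4:116627902-116628201 (minus strand), chr11:116024455-116024754 (minus strand) and chr1:180813556-180813855 (minus strand). Capitals mark a CCAAT box or a CHR element (short for cell cycle genes homology region), on either strand.
Asf1b: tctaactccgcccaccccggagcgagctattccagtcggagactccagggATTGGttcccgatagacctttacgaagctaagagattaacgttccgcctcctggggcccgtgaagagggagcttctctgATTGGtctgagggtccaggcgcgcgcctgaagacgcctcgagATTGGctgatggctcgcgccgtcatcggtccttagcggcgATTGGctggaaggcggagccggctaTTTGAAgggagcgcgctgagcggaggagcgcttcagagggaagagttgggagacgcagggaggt
Asf1a: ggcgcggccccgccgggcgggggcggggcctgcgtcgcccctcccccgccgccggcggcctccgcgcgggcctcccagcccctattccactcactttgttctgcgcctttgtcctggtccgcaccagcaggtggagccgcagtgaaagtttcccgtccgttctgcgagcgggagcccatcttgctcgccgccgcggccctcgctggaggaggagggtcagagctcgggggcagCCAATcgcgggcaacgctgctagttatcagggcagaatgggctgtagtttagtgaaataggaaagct
Nasp: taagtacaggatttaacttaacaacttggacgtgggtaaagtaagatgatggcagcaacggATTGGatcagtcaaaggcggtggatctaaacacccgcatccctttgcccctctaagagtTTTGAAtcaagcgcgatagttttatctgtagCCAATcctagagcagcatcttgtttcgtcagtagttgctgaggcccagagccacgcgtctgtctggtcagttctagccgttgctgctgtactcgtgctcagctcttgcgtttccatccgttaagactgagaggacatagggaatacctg
H3f3b: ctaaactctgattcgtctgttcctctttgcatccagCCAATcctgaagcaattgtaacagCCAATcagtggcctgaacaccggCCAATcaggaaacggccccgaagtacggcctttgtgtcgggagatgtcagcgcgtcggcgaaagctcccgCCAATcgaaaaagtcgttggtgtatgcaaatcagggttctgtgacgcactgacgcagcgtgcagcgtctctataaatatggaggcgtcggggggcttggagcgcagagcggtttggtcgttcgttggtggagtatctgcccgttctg
H3f3a: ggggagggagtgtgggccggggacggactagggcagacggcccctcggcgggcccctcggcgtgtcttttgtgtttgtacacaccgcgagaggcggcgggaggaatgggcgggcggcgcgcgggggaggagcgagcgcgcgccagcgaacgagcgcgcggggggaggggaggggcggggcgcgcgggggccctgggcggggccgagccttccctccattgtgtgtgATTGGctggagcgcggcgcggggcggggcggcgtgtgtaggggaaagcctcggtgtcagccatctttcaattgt
The CCAAT box, the CHR element and the E2F site were searched on both strands in the windows of the 9 members that the table holds, and no match overlapped a match of another motif. CCAAT stood in 6 of the 9 windows, against 37.4% of all 32851 promoter windows of the same length. The Asf1b and H3f3b windows held 4 matches each, the Slbp window 3, the Nasp window 2 and the Asf1a and H3f3a windows 1 each. The CHR letters TTTGAA or TTCGAA stood in 2 of the 9, Asf1b and Nasp, against 19.2% of all windows. In Asf1b the CHR match began 14 bases before the start, downstream of its 4 CCAAT boxes, and in Nasp it began 130 bases before the start. None of the 9 windows held TTTGGCGC, TTTCGCGC, TTTCCCGC or TTTGCCGC, letters of the E2F site, which stood in 2.26% of all windows. Exact matches to these letters are rare, so their absence does not show that the genes lack E2F sites. A match is a description of letters and not of binding.

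**Figure D1:**
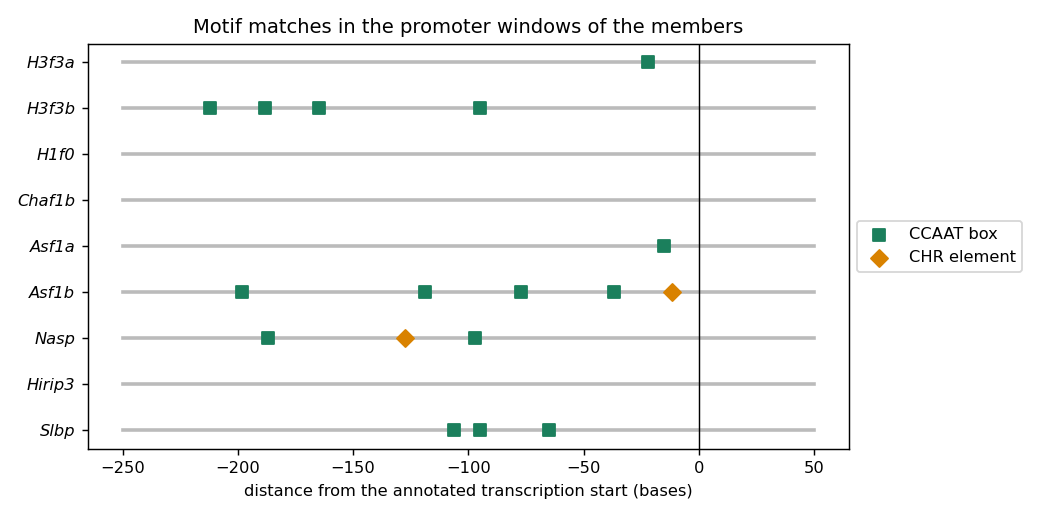
Positions of motif matches in the promoter windows of 9 genes, as distance in bases from the annotated transcription start (black line at 0), with squares for CCAAT boxes and diamonds for CHR elements. Asf1b carries 4 CCAAT boxes and a CHR element, while the H1f0, Chaf1b and Hirip3 windows carry no match of any of the 3 motifs.

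The arrays were at a like level, with median intensities of 69.8 to 71.2 on the PD0332991 arrays and 71.4 to 72.9 on the vehicle arrays. Correlations across probe sets were 0.996 between arrays of the same group and 0.991 to 0.992 between groups. Of 10 markers of mammary epithelium, 9 were bright, with Epcam at 9595 to 9727 on the PD0332991 arrays and 9443 to 9737 on the vehicle arrays, while Krt19 was at the bottom of the range, at 1.00 to 2.27 on the PD0332991 arrays and 1.00 on each vehicle array. In that list Krt7 and Cldn4 rose, Esrp1 fell and 7 did not pass the test, while 4 of the 10 had an unadjusted p under 0.05. Leukocyte markers were dim or moderate, with sums over 7 genes of 582 to 607 on the PD0332991 arrays and 469 to 508 on the vehicle arrays. In that list 2 genes rose, the pan-leukocyte marker Ptprc (17.1 to 19.1 on the PD0332991 arrays, 9.95 to 13.3 on the vehicle arrays) and the macrophage marker Cd68 (291 to 319 on the PD0332991 arrays, 216 to 247 on the vehicle arrays), while the T cell marker Cd3e was at 1 to 2 on the PD0332991 arrays and 1 to 7.09 on the vehicle arrays. An unadjusted limma p under 0.05 was found for 4 of the 7, Adgre1 and Tyrobp being the others, both higher on all PD0332991 arrays. Of 7 fibroblast markers 1 fell, and the list summed to 294 to 326 on the PD0332991 arrays and 329 to 384 on the vehicle arrays. The marker that fell was Pdgfra, at 111 to 121 on the PD0332991 arrays and 164 to 190 on the vehicle arrays. The other 6 did not pass the test and had log2 fold changes of 0.01 to 0.25. None of 6 basal, 5 endothelial and 3 adipocyte markers passed the limma test, or had an unadjusted p under 0.05. The part of these cells in the results below was not tested.

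Comparing PD0332991 with vehicle asked how the genes that place and supply histones differ after a day of blocking these kinases. On the brightest probe set, transcripts of Slbp, Nasp, Asf1b, Chaf1b and Hirip3 fell by 1.69-fold to 2.52-fold, and H2ax fell 2.76-fold. The brightest probe set of Asf1a fell 1.21-fold, a call lost under 5 of the alternatives. Its other probe set did not pass the limma test (log2 fold change -0.03, adjusted p = 0.798). Of the probe sets assigned to a single histone H3.3 gene, that of H3f3a fell 1.28-fold, a call that did not last when most single arrays were left out, and that of H3f3b rose 3.05-fold. None of 5 far brighter probe sets shared by the H3.3 genes passed the limma test (log2 fold changes -0.12 to 0.03, 1 with an unadjusted p under 0.05), and which H3.3 gene a signal comes from is uncertain. Counted by probe set, 13 of 17 fell, 1 rose and 3 did not pass the test. Over all 45037 probe sets tested, 8.19% were called lower and 6% higher (limma, Benjamini-Hochberg adjusted p under 0.05). Counted by the brightest probe set assigned to each gene alone, 8 of 9 fell and 1 rose, against 9.05% lower and 7.8% higher over 18193 genes. For H3f3a and H3f3b this count leaves out the far brighter shared probe sets, none of which passed the test. The median log2 fold change of the 17 probe sets was -0.73, against -0.01 for all probe sets. Intensities on all PD0332991 arrays lay below those on all vehicle arrays for 14 member probe sets (18.5% of all probe sets) and above them for 1 (15.5% of all probe sets). In bulk RNA such as this, fewer cells that express a gene and less RNA per cell cannot be told apart.

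**Figure D2:**
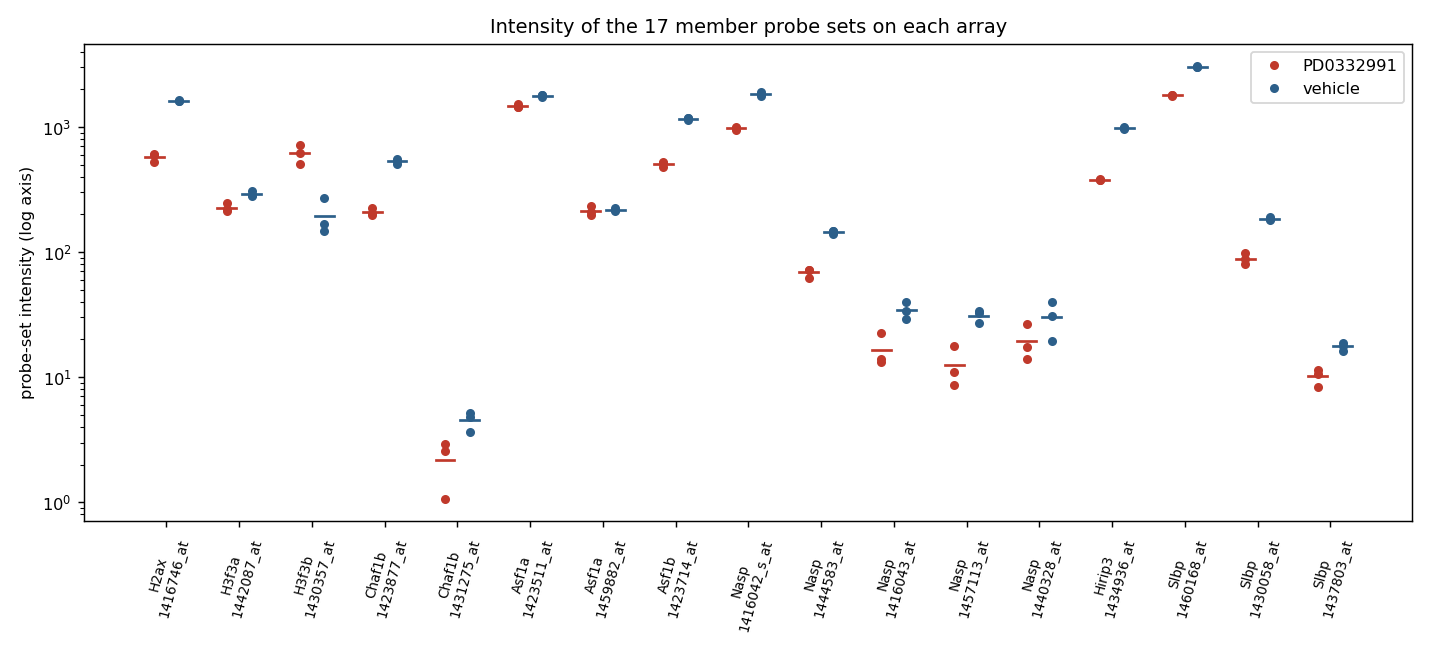
Intensity (log axis) of the 17 member probe sets on each of the 3 PD0332991 arrays (red) and the 3 vehicle arrays (blue), with a bar at each group's mean. The groups are apart for 15 probe sets, overlap for Asf1a 1459882_at and Nasp 1440328_at, and are in the opposite order for H3f3b.

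Among the variants, H2ax encodes H2A.X, the histone that is phosphorylated around DNA double-strand breaks and whose message can be made in both the stem-loop and the polyadenylated form. Its single probe set, 1416746_at, had intensities of 519, 595 and 612 on the PD0332991 arrays and 1595, 1628 and 1616 on the vehicle arrays. The groups were far apart, and the difference was many times the spread within either (log2 fold change -1.47, 95% interval -1.64 to -1.29, adjusted p = 0.000165). In the order of 18193 genes by log2 fold change, 96 genes including H2ax changed by as much downwards or more. H2ax lies on chromosome 9.

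H3f3a and H3f3b encode the same protein, the H3.3 variant that replaces H3 outside replication. The H3f3a probe set, 1442087_at, had intensities of 211, 219 and 247 on the PD0332991 arrays and 287, 282 and 309 on the vehicle arrays. All PD0332991 values were the lower ones, by a modest margin (log2 fold change -0.35, 95% interval -0.53 to -0.18, adjusted p = 0.0279). That call was lost when any array but PD0332991 replicate 3 was left out, with limma adjusted p between 0.0654 and 0.09, and it was also lost when vehicle replicate 1 was dropped and the arrays were centred on spike-ins (adjusted p = 0.109).

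The H3f3b probe set, 1430357_at, had intensities of 504, 622 and 712 on the PD0332991 arrays and 146, 167 and 270 on the vehicle arrays. The groups did not overlap, but the values within each group spread more widely than for the other bright members, and the third replicate was the highest in both groups. Its log2 fold change was 1.61 (95% interval 1.02 to 2.20, adjusted p = 0.0105), and only 3 of 18193 genes, itself included, had a rise of that size or more. That rank belongs to this probe set. The far brighter probe sets shared by the H3.3 genes, described next, had log2 fold changes of -0.12 to 0.03.

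Another 5 probe sets name H3f3a and H3f3b together with H3f3c and 3 other loci, and so are not assigned to either gene. They were very bright, between 7339 and 11386 on the PD0332991 arrays and between 7343 and 11328 on the vehicle arrays, pooled over the 5. On 2 of them all PD0332991 values were below all vehicle values. Probe set 1420376_a_at had 9042 to 9166 on the PD0332991 arrays and 9660 to 10072 on the vehicle arrays, and 1423263_at had 7898 to 8177 on the PD0332991 arrays and 8333 to 8382 on the vehicle arrays. On the other 3 the groups overlapped. Over all 5, log2 fold changes ran from -0.12 to 0.03, and none passed the limma test (adjusted p from 0.105 to 0.839), while 1, 1420376_a_at, had an unadjusted p under 0.05. Because the H3.3 genes have near-identical copies in the genome, the assignment of a signal to 1 of them is uncertain.

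Measured within each array, the log2 value of H3f3b minus that of H3f3a was 1.20, 1.44 and 1.47 on the PD0332991 arrays and -0.91, -0.70 and -0.18 on the vehicle arrays. The groups did not overlap, and the difference between them was 1.96 (exact two-sided permutation test, p = 0.1, the smallest value that 3 against 3 arrays can give). The zero of this scale carries no meaning, since the probe sets differ, and only the shift between the groups does.

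**Figure D3:**
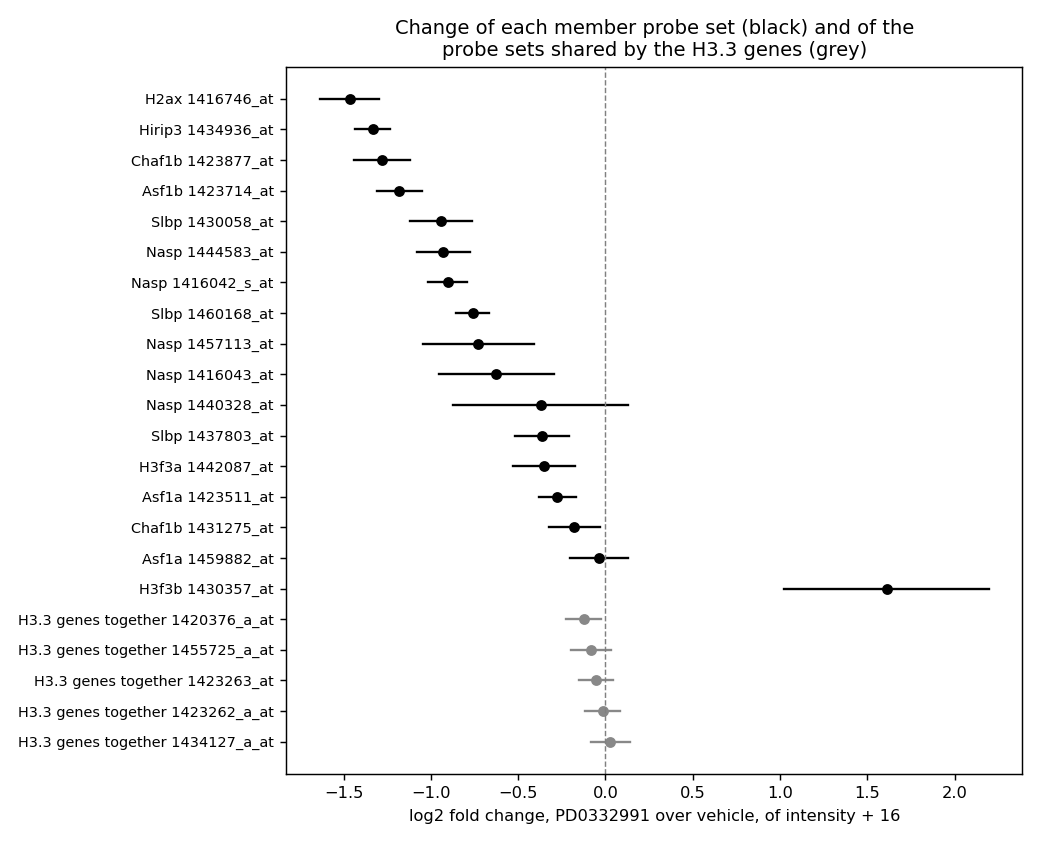
Log2 fold change of intensity + 16, PD0332991 over vehicle, with limma's 95% interval, for the 17 member probe sets (black) and the 5 probe sets shared by the H3.3 genes (grey). H2ax, Hirip3, Chaf1b and Asf1b lie beyond -1, the shared H3.3 probe sets lie between -0.12 and 0.03, and H3f3b stands alone at 1.61.

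Of the assembly factors, Hirip3 fell furthest. It binds the H3.3 chaperone HIRA and histones. Its probe set 1434936_at had intensities of 374, 383 and 378 on the PD0332991 arrays and 959, 1002 and 971 on the vehicle arrays. Values within each group were nearly equal, and the gap between the groups was wide (log2 fold change -1.33, 95% interval -1.43 to -1.23, adjusted p = 8.97e-05).

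Chaf1b had intensities of 206, 196 and 225 on the PD0332991 arrays and 503, 532 and 553 on the vehicle arrays on its bright probe set, 1423877_at. The highest PD0332991 value was under the lowest vehicle value by a wide margin (log2 fold change -1.28, 95% interval -1.44 to -1.12, adjusted p = 0.000218). Its other probe set, 1431275_at, was close to the bottom of the range, at 1.06 to 2.92 on the PD0332991 arrays and 3.66 to 5.20 on the vehicle arrays, and did not pass the test (log2 fold change -0.18, adjusted p = 0.112, or -0.85 with 1 added in place of 16). The large subunit of CAF-1 was not analysed here. Rbbp4, its small histone-binding subunit that other chromatin complexes share, was 1.19-fold lower (log2 fold change -0.25, adjusted p = 0.0135), a call lost without PD0332991 replicate 2 (adjusted p = 0.0509) or vehicle replicate 3 (adjusted p = 0.0503), and after centring on spike-ins with all arrays (adjusted p = 0.0746) or without vehicle replicate 1 (adjusted p = 0.0961).

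The 2 Asf1 paralogues, which bind the same face of an H3-H4 dimer, both fell on their brightest probe sets, but not equally. Asf1b had intensities of 476, 523 and 515 on the PD0332991 arrays and 1187, 1174 and 1129 on the vehicle arrays (1423714_at, log2 fold change -1.18, 95% interval -1.31 to -1.05, adjusted p = 0.000144). Asf1a had intensities of 1430, 1511 and 1448 on the PD0332991 arrays and 1781, 1745 and 1797 on the vehicle arrays (1423511_at, log2 fold change -0.28, 95% interval -0.38 to -0.17, adjusted p = 0.0125). The groups were apart for both genes, and the call of Asf1a was lost without vehicle replicate 3 (adjusted p = 0.0501) and after centring on spike-ins (adjusted p = 0.0586). The other Asf1a probe set, 1459882_at, had overlapping groups, with 233, 198 and 207 on the PD0332991 arrays and 217, 225 and 212 on the vehicle arrays (log2 fold change -0.03, 95% interval -0.20 to 0.13, adjusted p = 0.798). Within arrays, the log2 value of Asf1b minus that of Asf1a was -1.56, -1.50 and -1.46 on the PD0332991 arrays and -0.58, -0.57 and -0.66 on the vehicle arrays. The shift of -0.90 was far larger than the SD within either group (0.047 and 0.053, n = 3 each; exact two-sided permutation test, p = 0.1, again the smallest value possible).

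**Figure D4:**
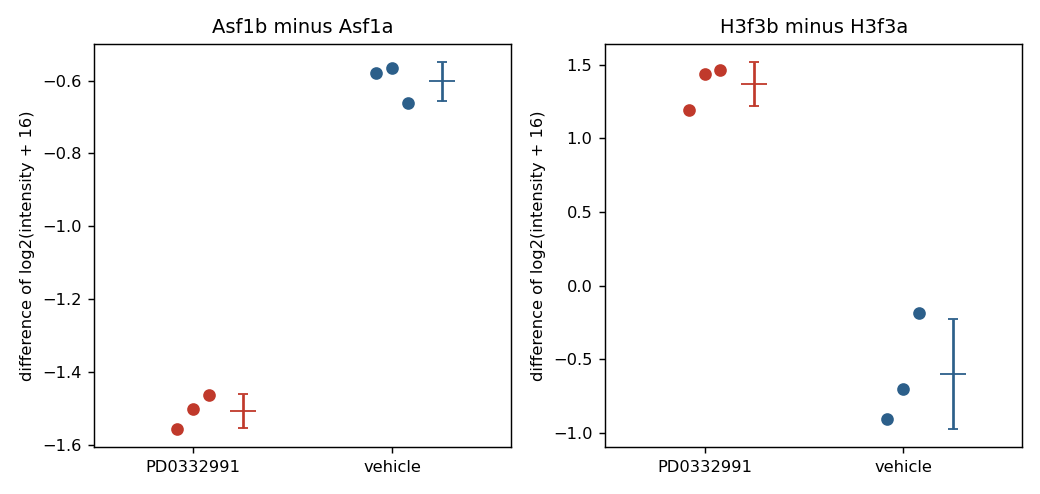
Difference of log2(intensity + 16) between paralogues on each array, for the brightest probe set assigned to each gene alone, with the mean and SD of the 3 arrays beside the points. Asf1b minus Asf1a averages -1.51 on the PD0332991 arrays and -0.60 on the vehicle arrays, and H3f3b minus H3f3a averages 1.37 and -0.60 on the same arrays.

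Nasp had the most probe sets of the members, 5, and 4 of them fell. The brightest, 1416042_s_at, had intensities of 948, 971 and 993 on the PD0332991 arrays and 1839, 1884 and 1768 on the vehicle arrays (log2 fold change -0.90, 95% interval -1.02 to -0.79, adjusted p = 0.00021). The next, 1444583_at, had 71.3, 72.3 and 62.3 on the PD0332991 arrays and 148, 139 and 148 on the vehicle arrays, and its log2 fold change of -0.93 differed little from that of the brightest (adjusted p = 0.000633). In both probe sets the PD0332991 values sat well below the vehicle values. The 3 dim ones ranged from 8.69 to 26.5 on the PD0332991 arrays and from 19.4 to 40.1 on the vehicle arrays, with log2 fold changes of -0.63 for 1416043_at (adjusted p = 0.0325), -0.73 for 1457113_at (adjusted p = 0.0188) and -0.37 for 1440328_at, whose groups overlapped (adjusted p = 0.309). Leaving out 1 array ended the call of 1416043_at for every array but PD0332991 replicate 3 (limma adjusted p from 0.0604 to 0.1). It ended the call of 1457113_at without PD0332991 replicate 1, PD0332991 replicate 2, vehicle replicate 2 or vehicle replicate 3 (adjusted p from 0.0517 to 0.0683). With 1 or 64 added in place of 16, the log2 fold changes were -1.02 or -0.28 for 1416043_at and -1.29 or -0.31 for 1457113_at.

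Slbp fell on all 3 of its probe sets. On the brightest, 1460168_at, intensities were 1765, 1795 and 1795 on the PD0332991 arrays and 3029, 3084 and 2991 on the vehicle arrays. Replicates differed by a few percent and the groups were far apart (log2 fold change -0.76, 95% interval -0.86 to -0.66, adjusted p = 0.000221). The second, 1430058_at, had 97.9, 87.9 and 79.8 on the PD0332991 arrays and 184, 190 and 179 on the vehicle arrays (log2 fold change -0.94, adjusted p = 0.00109). The third, 1437803_at, was dim, with 10.6, 11.4 and 8.35 on the PD0332991 arrays and 16.1, 17.9 and 18.8 on the vehicle arrays. Its log2 fold change was -0.36 (adjusted p = 0.0176), and the call was lost without PD0332991 replicate 1, vehicle replicate 2 or vehicle replicate 3 (adjusted p from 0.0531 to 0.0632). The size of this change rests on the pseudocount, at -0.75 with 1 added and -0.14 with 64 added.

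By the size of the fall on the brightest probe set assigned to each gene alone, the order was H2ax, Hirip3, Chaf1b, Asf1b, Nasp, Slbp, H3f3a and Asf1a. The 95% intervals of the 4 largest falls overlapped from each gene to the next, as did those of Nasp and Slbp and those of H3f3a and Asf1a. The interval of Asf1b (-1.31 to -1.05) did not reach that of Nasp (-1.02 to -0.79), and the interval of Slbp (-0.86 to -0.66) did not reach that of H3f3a (-0.53 to -0.18). These gaps hold for the brightest probe sets and do not test a difference between genes. The interval of the second Slbp probe set, 1430058_at (-1.12 to -0.76), overlapped those of Asf1b and Nasp. With probe sets averaged per gene, Chaf1b was at -0.73, Nasp at -0.71 and Slbp at -0.69. At least 2-fold falls were found for 4 of the 9 genes, against 1.15% of all genes.

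Partner genes of the members, beyond the listed ones, fell in part. Of 35 other nucleosome assembly and histone variant genes with a value, 14 fell, 1 rose and 20 did not pass the test, with a median log2 fold change of -0.12, against 0.00 over all genes, of which 9.05% fell and 7.8% rose. Cenpa, the H3 variant of centromeres, had the largest fall, with 1051, 1131 and 1167 on the PD0332991 arrays and 3733, 3697 and 3672 on the vehicle arrays (log2 fold change -1.72, adjusted p = 8.97e-05). Dnajc9, a co-chaperone that binds H3-H4, was 2.13-fold lower (log2 fold change -1.09), and Mcm2, a subunit of the replicative helicase that also holds parental H3-H4, was 1.95-fold lower (log2 fold change -0.97). H2az2, one of the genes for the H2A.Z variant, was 1.84-fold lower, and Hat1, which acetylates newly made H4, was 1.69-fold lower. Ipo4, an importin that carries H3-H4 into the nucleus, was the gene that rose, with 1348, 1330 and 1224 on the PD0332991 arrays and 1004, 1031 and 931 on the vehicle arrays (log2 fold change 0.39, adjusted p = 0.0135). The call of Ipo4 was lost without PD0332991 replicate 1 (adjusted p = 0.0512), without PD0332991 replicate 2 (adjusted p = 0.0537) and after centring on spike-ins (log2 fold change 0.26, adjusted p = 0.213).

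The genes of H3.3 deposition outside replication, chosen for naming after their values were seen, gave small differences. Hira, Ubn1 and Cabin1 form the HIRA complex with which Asf1a works, and Daxx and Atrx deposit H3.3 at repeats and telomeres. Limma called 0 of these 5 genes, against 16.8% of all genes called in either direction, and 1, Ubn1, had an unadjusted p under 0.05. With so few genes, picked after their values were seen, the count of 0 does not set them apart from all genes. Ubn1 was called lower when dim probe sets were filtered out (adjusted p = 0.039) and with trend and robust settings (adjusted p = 0.0122). On the brightest probe set of each gene, log2 fold changes ran from -0.14 for Ubn1 to 0.02 for Daxx, with 95% intervals that together spanned -0.27 to 0.14. With probe sets averaged per gene, they ran from -0.17 for Hira (limma adjusted p = 0.191) to 0.02 for Daxx. All PD0332991 values lay below all vehicle values for Ubn1 and Cabin1, as for 18.5% of all probe sets. The groups overlapped for Hira, Atrx and Daxx.

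Around Slbp, 26 other genes of histone messenger RNA synthesis and 3′ end processing had a value, of which 12 fell, 1 rose and 13 did not pass the test. Their median log2 fold change was -0.17, against 0.00 over all genes, of which 9.05% fell and 7.8% rose. The falls were small. Casp8ap2, or FLASH, which the stem-loop cleavage machinery needs, had 691, 651 and 706 on the PD0332991 arrays and 1019, 1063 and 1021 on the vehicle arrays (log2 fold change -0.59, adjusted p = 0.0015). Eri1, the exonuclease that trims the stem-loop, was 1.42-fold lower, and Lsm4, of the ring that takes part in decay of histone transcripts, was 1.40-fold lower. Srrt, or ARS2, a partner of the cap-binding complex, was 1.26-fold lower, and Snrpf, a core protein of small nuclear ribonucleoproteins, was 1.24-fold lower. Tut7, a terminal uridylyltransferase, rose, with 1602, 1507 and 1609 on the PD0332991 arrays and 1352, 1362 and 1384 on the vehicle arrays (log2 fold change 0.20, adjusted p = 0.0385), but on its other probe set the log2 difference was -0.05 (adjusted p = 0.577), and the call was lost whichever array was left out (adjusted p from 0.0536 to 0.111). The 13 calls in this list became 7 without PD0332991 replicate 1, PD0332991 replicate 3, vehicle replicate 1 or vehicle replicate 2, and 6 without PD0332991 replicate 2 or vehicle replicate 3.

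**Figure D5:**
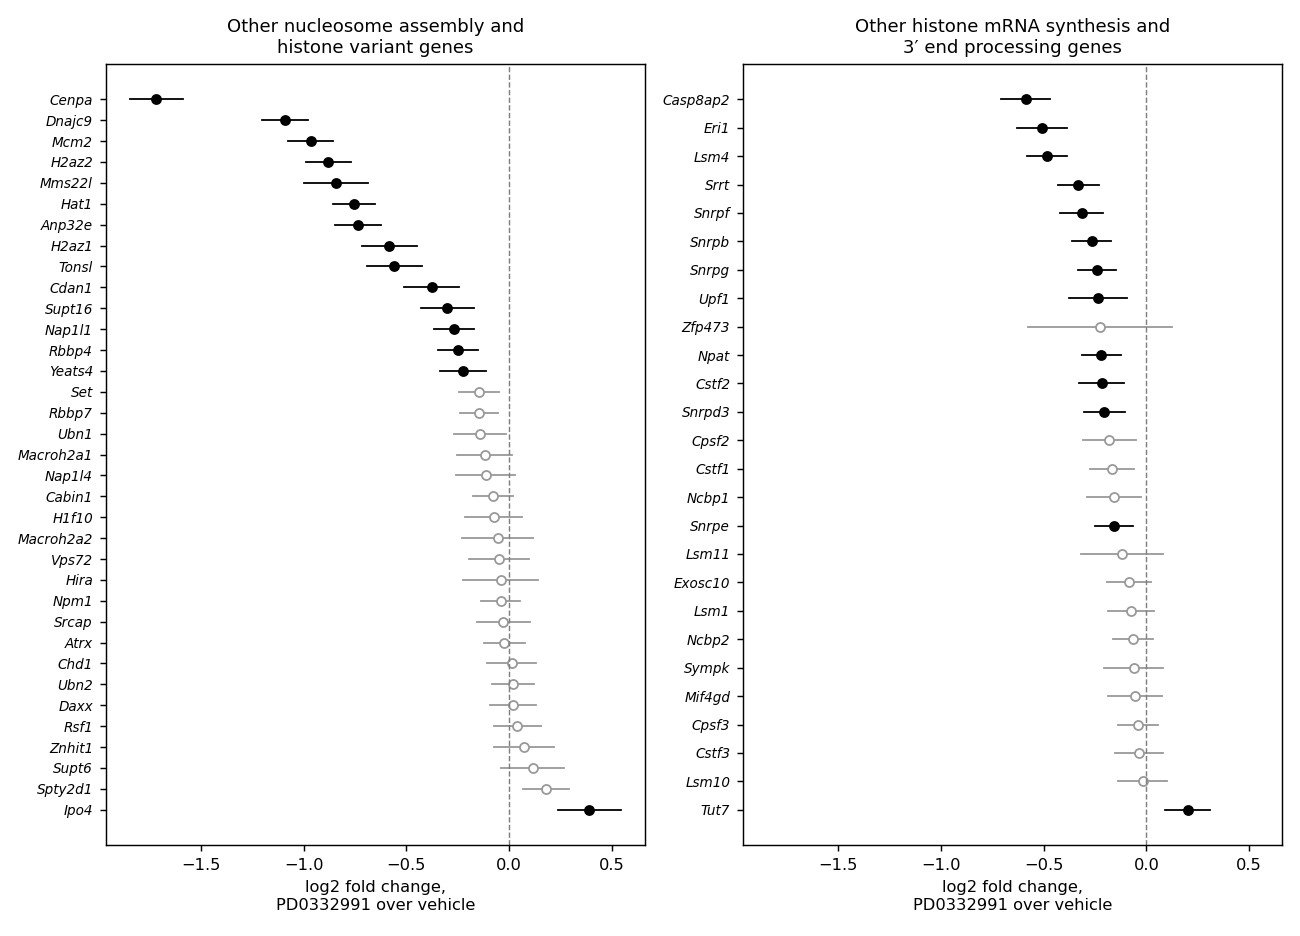
Log2 fold change of intensity + 16, PD0332991 over vehicle, with limma's 95% interval, for 35 nucleosome assembly and histone variant genes (left) and 26 histone messenger RNA genes (right), other than the members. Filled points passed the test, open points did not, and the left list reaches -1.72 for Cenpa while the right list reaches -0.59 for Casp8ap2.

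The level of all arrays matters for small changes. Of the called probe sets 42.3% were higher, but 11.2% when each array was centred on the 9 hybridization spike-ins, which moved the median of all probe sets to -0.13 on the log2 scale, and 21.6% when vehicle replicate 1 was also dropped (median -0.06). H3f3b remained called higher under both, and of the members' 13 falls 12 and 10 were called.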

How the data were processed

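Total RNA was biotin-labelled by the standard Affymetrix procedure, per the labels' protocols. The authors' deposited table holds 1 linear intensity per probe set and array, and the summarisation method and scaling are not given in the sources used here. No further normalization was applied, because the medians were nearly equal. The 64 control probe sets were left out, and the platform annotation gave 1 gene symbol to 34945 of the other 45037. Values were taken as log2(intensity + 16), which understates changes of dim probe sets, and PD0332991 was compared with vehicle with lmFit and eBayes of limma 3.58.1 (R 4.3.3), with p-values adjusted by Benjamini-Hochberg across the 45037 and a threshold of 0.05. Where genes are counted, each gene was represented by the brightest probe set assigned to it alone. The procedure was tested on simulated data. Detection calls were not used here, and the number of arrays limits the precision.

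The members and gene lists were chosen with earlier results of these data known. Named genes were all members and, in each other list, up to 5 called genes per direction with the smallest p. Rbbp4 and the 5 genes of H3.3 deposition fall outside this rule and were chosen after their values were seen. Of 38 listed assembly genes 3 were not analysed here. Replicate numbers were not used to pair the samples in the main comparison. Deviations of same-numbered arrays from their group means correlated at -0.028, -0.11 and 0.14 over 22519 probe sets. Those of unlike-numbered arrays correlated at -0.15 to 0.16. Alternatives were other scalings, pseudocounts of 1 and 64, a dim filter, a replicate block, trend and robust eBayes, gene-level tests, probe set types, each array left out and a threshold of 0.01. RefSeq promoter windows matched 9 of the 10 genes, all but H2ax. Tables and plots were made with Python 3.11.15, pandas 2.3.3 and matplotlib 3.10.9.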

Additional observations from a re-analysis of the deposited data

How the results depend on the processing

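Of the 14 member probe sets called, 8 were called under every alternative that tested them: H2ax, Hirip3, Asf1b, the bright probe set of Chaf1b, 2 of Nasp and 2 of Slbp. None of the 14 changed sign. The number called was 9 of 9 genes with 1 value per gene, be it the brightest or the averaged probe sets (fewer units tested), 8 at a threshold of 0.01, where H3f3b was lost (adjusted p = 0.0105), and 9 to 14 when 1 array was left out, the lowest without vehicle replicate 3. The 13 calls among histone messenger RNA genes became 5 after spike-in centring, 3 when the centring also left out vehicle replicate 1, 3 with the replicate number as a block, 6 at a threshold of 0.01 and 6 to 7 when 1 array was left out. With the block, 11 member probe sets were called, 10 of them lower, and Asf1a (adjusted p = 0.0721), H3f3a (adjusted p = 0.0502) and the dim Slbp probe set (adjusted p = 0.0781) were lost, as were Rbbp4 (0.0724), Srrt (0.0516), Snrpf (0.0552) and Tut7 (0.108). The block left 2305 of all probe sets called, against 6391. The cause of these differences was not tested.

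Sign changes were found for uncalled values near 0. Asf1a 1459882_at gave 0.00089 after quantile normalization and 0.011 without PD0332991 replicate 2 (-0.097 to 0.011 when 1 array was left out). Atrx gave 0.0052 after median centring and Hira 0.0068 without PD0332991 replicate 1 (-0.11 to 0.0068 when 1 array was left out). Daxx gave -0.11 with spike-in centring, -0.025 when that centring left out vehicle replicate 1, and -0.0064 without vehicle replicate 2 (-0.0064 to 0.046 when 1 array was left out). Both paralogue differences kept their sign in all alternatives run, from -1.03 to -0.84 for Asf1b minus Asf1a and from 1.71 to 2.17 for H3f3b minus H3f3a. Over all probe sets, the number called was 3439 to 3753 when 1 array was left out, 3379 with spike-in centring and 2185 when that centring left out vehicle replicate 1, 2340 at the threshold of 0.01 and 9693 with trend and robust settings. For dim probe sets the signal limits what can be seen, since the added 16 compresses their changes. With 1 or 64 added instead, the log2 fold change was -0.75 or -0.14 for Slbp 1437803_at, -0.85 or -0.05 for Chaf1b 1431275_at, -1.02 or -0.28 for Nasp 1416043_at, -1.29 or -0.31 for Nasp 1457113_at and -0.60 or -0.17 for Nasp 1440328_at. With 1 added, Nasp 1416043_at was not called (adjusted p = 0.0561).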
